A study of Mus musculus with 20 samples.

Results

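The mouse Cyp3a genes encode cytochrome P450 enzymes of the endoplasmic reticulum that oxidize steroids, bile acids and a large part of the drugs cleared by the liver. In the adult male mouse liver Cyp3a11 is the best known of them. Cyp3a41a, Cyp3a41b and Cyp3a44 are known as genes of the female liver, kept low in males by the pulsed release of growth hormone, and Cyp3a16 is known from fetal and newborn liver. The drug receptors PXR and CAR switch on Cyp3a11, and all P450 enzymes of this kind take their electrons from P450 oxidoreductase. The data described are the 8 Cyp3a genes named Cyp3a11, Cyp3a13, Cyp3a16, Cyp3a25, Cyp3a41a, Cyp3a41b, Cyp3a44 and Cyp3a59, taken by their gene symbols from the 22298 genes listed for each liver. Of these, 7 had enough counts to be tested and Cyp3a16 did not.

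Livers of 20 male Lepr db/db mice were used, a strain whose leptin receptor does not signal and whose mice grow obese and diabetic. All 20 carried the same mutation and were injected at 5 weeks of age with AAV8 by the tail vein, so no lean or uninjected liver was among them. The 4 groups of 5 mice were Vec (non-targeting shRNA and vehicle), Vec+BBR (non-targeting shRNA and benzbromarone), shRNA (a 4-in-1 shRNA against Pparg and vehicle) and shRNA+BBR (the same shRNA and benzbromarone). Benzbromarone (BBR) is a uricosuric drug used against gout, and mice on it were gavaged daily with 25 mg/kg over 4 weeks. The vehicle was CMC-Na, and the age at which dosing began is not given in the sources used here. Polyadenylated RNA of whole liver was sequenced, with 1 library per sample, each taken as 1 mouse, and between 17432904 and 25024099 counts per library. Changes are given as log2 fold changes with standard error (SE) and adjusted p from the quasi-likelihood test of edgeR, fitted over 12342 genes, and called where the adjusted p was under 0.05. CPM are counts scaled to library size with TMM factors, used to compare a gene between livers, and FPKM are per length and were used to compare genes with each other.

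Pparg, the gene targeted, was at 24.8 ± 8.63 CPM (SD, n = 5) in Vec, and knockdown brought it to 5.73 ± 1.53 CPM in shRNA livers (log2 fold change −2.12, SE 0.28, edgeR adjusted p = 4.47e-05). It was at 31.8 ± 4.57 CPM in Vec+BBR and 13.9 ± 6.22 CPM in shRNA+BBR livers, with an adjusted p of 0.00843 for this difference by edgeR. The defining hepatocyte genes Alb, Apoa1, Ttr, Cps1 and Hnf4a summed to between 82583 and 137622 CPM in all libraries, as a liver sample should show. Marker genes of the pancreas summed to at most 0.417 CPM in any library. The 5 enterocyte markers summed to between 43.6 and 101 CPM, although Sis and Alpi among them were at 0 in every library. Whole liver was sequenced, so levels are those of liver RNA and not per hepatocyte. The part of hepatocyte number in the Cyp3a differences was not tested.

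In the GENCODE M21 annotation of GRCm38, 7 of the 8 genes lie in 677 kb of chromosome 5, from Cyp3a16 to Cyp3a59. In the order of their positions they are Cyp3a16 (145436309 to 145469723), Cyp3a41b (145558664 to 145584730), Cyp3a41a (145694049 to 145720136), Cyp3a44 (145773983 to 145805874), Cyp3a11 (145854426 to 145879964), Cyp3a25 (145977194 to 146009618) and Cyp3a59 (146079257 to 146113287). Cyp3a13 lies alone at 137892932 to 137921619, 7515 kb before Cyp3a16. Cyp3a59 is on the forward strand and the other 7 are on the reverse strand. Each has 13 exons in its first annotated transcript and a coding sequence of 1509 or 1512 bases.

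Reads can be told apart between these genes only where their transcripts differ. Across the aligned transcripts Cyp3a41a and Cyp3a41b were identical at 99.9% of bases, Cyp3a25 and Cyp3a59 at 97.04%, Cyp3a41a and Cyp3a44 at 95.01%, and Cyp3a11 and Cyp3a41a at 94.5%. Cyp3a13 was identical to each other member at 76.0 to 77.6% of bases. Of the 100-base windows of Cyp3a41a, 88.4% occurred whole in Cyp3a41b, and of those of Cyp3a25, 6.05% occurred whole in Cyp3a59. Of the windows of Cyp3a44, 2.52% occurred whole in Cyp3a41a and 0.268% in Cyp3a11, and no window of Cyp3a13 occurred in another member. Cyp3a41a and Cyp3a41b therefore share most of their sequence, whereas Cyp3a13, Cyp3a11 and Cyp3a16 share almost none at this length.

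**Figure D1:**
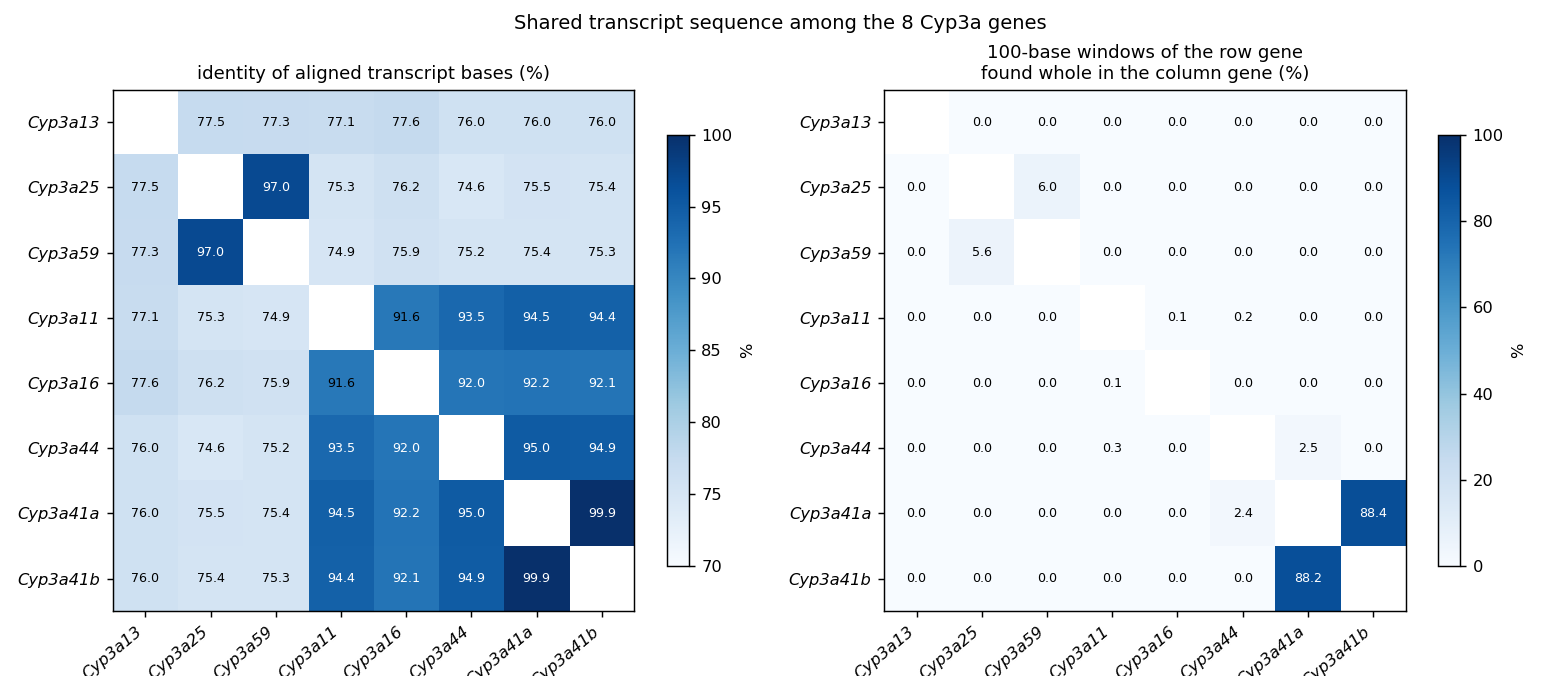
Identity of aligned transcript bases between each pair of Cyp3a genes (left, %) and the share of 100-base windows of the row gene that occur whole in the column gene (right, %). Cyp3a41a and Cyp3a41b stand apart from all other pairs, with 88.4% and 88.2% of windows shared, and the next pair, Cyp3a25 and Cyp3a59, shares 6.05% and 5.61%.

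The annotated transcripts of Cyp3a41a (2060 bases) and Cyp3a41b (2064 bases) differ by 2 substitutions, both in the coding sequence, and by 4 bases near the 5′ end that the Cyp3a41a transcript lacks. Counted from 1 at the 5′ end of the Cyp3a41a transcript, with its base first, the substitutions are G207A in exon 2 and G423T in exon 5. The 41 bases around each are shown because they, with the 4 bases near the start, are all that separates reads of the pair. The capital marks the base that differs.
Cyp3a41a, exon 2: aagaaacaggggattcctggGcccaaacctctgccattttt
Cyp3a41b, exon 2: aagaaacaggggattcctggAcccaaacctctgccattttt
Cyp3a41a, exon 5: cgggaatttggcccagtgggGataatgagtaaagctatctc
Cyp3a41b, exon 5: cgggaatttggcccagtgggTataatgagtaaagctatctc

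Estimated counts that are not whole numbers arise where reads are divided between genes. Cyp3a25 and Cyp3a59 had counts that were not whole numbers in 20 of 20 libraries, Cyp3a11 and Cyp3a41a in 19, Cyp3a44 in 9 and Cyp3a41b in 7. Cyp3a13 and Cyp3a16 had whole counts in all 20 libraries. Of the counts given to Cyp3a41a and Cyp3a41b together over all libraries, Cyp3a41b held 0.124%, and at most 0.294% in any library. Cyp3a41b had a count above 0 in 7 libraries, each with at least 1718 counts of Cyp3a41a, and its highest count was 34.3. How the counting program divides reads decides such a count, so the values of Cyp3a41b are uncertain, and adding its counts to those of Cyp3a41a left each call for Cyp3a41a as it was.

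Compared per length, Cyp3a11 had the highest level in every liver. Its FPKM averaged 1324 ± 325 (SD, n = 5) in Vec, 1157 ± 120 in Vec+BBR, 1547 ± 266 in shRNA and 1334 ± 172 in shRNA+BBR. Cyp3a25 was second in each group, with 367 ± 78.2 FPKM in Vec and 249 ± 34.4 in Vec+BBR. The lowest Cyp3a11 value lay above the highest Cyp3a25 value in each of the 4 groups. Behind these came Cyp3a13 (between 70.5 and 88.7 FPKM as group means) and Cyp3a59 (between 32.7 and 52.4 FPKM as group means). Cyp3a44 reached at most 1.34 FPKM, Cyp3a41b 0.749 and Cyp3a16 0.199 in any liver.

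The place of Cyp3a41a in this order was not fixed. It came after Cyp3a25 in shRNA livers with 271 ± 70.7 FPKM, where its highest value of 356 FPKM passed the lowest Cyp3a25 value of 350 FPKM. In Vec it had the same place, with 105 ± 124 FPKM, but overlapped with Cyp3a25 and with Cyp3a13. In shRNA+BBR, with 46.8 ± 37.4 FPKM, it overlapped with Cyp3a13 above and Cyp3a59 below. In Vec+BBR it came after Cyp3a59, with 1.70 ± 1.204 FPKM, and its highest value of 3.22 FPKM lay under the lowest Cyp3a59 value of 22.2 FPKM.

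**Figure D2:**
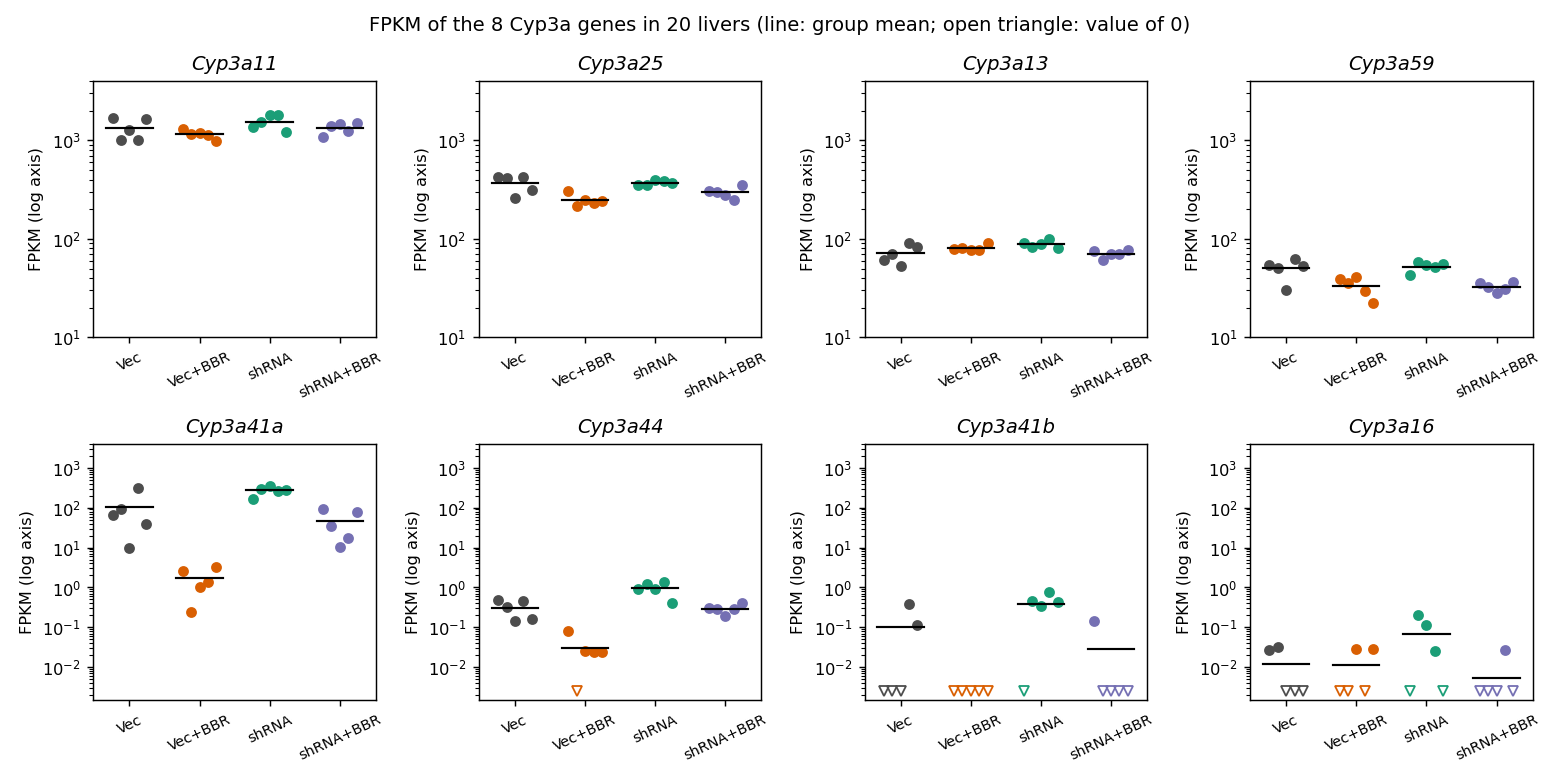
FPKM of each Cyp3a gene (log axis, with a wider range in the lower row) in the 4 groups, 1 point per liver, with a line at the group mean and open triangles for values of 0. Cyp3a11, Cyp3a25, Cyp3a13 and Cyp3a59 stay within a narrow band, whereas Cyp3a41a and Cyp3a44 are lowest in the 5 Vec+BBR livers.

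Cyp3a41a, a gene of the female liver, varied widely between these male livers. In the Vec livers it was at 148, 213, 20.9, 659 and 80.9 CPM in the order of replicates 1 to 5, so that the highest liver was 31.5 times the lowest. The Vec+BBR livers held 5.60, 0.448, 2.09, 2.68 and 6.55 CPM. The shRNA livers held 331, 575, 734, 538 and 573 CPM, and those given both shRNA and BBR held 190, 73.7, 22.3, 34.5 and 152 CPM. All 5 Vec+BBR livers lay below every other liver, and the 5 shRNA livers lay above all Vec and shRNA+BBR livers except Vec replicate 4.

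Cyp3a44, the neighbour of Cyp3a41a and also a gene of the female liver, was low but followed the same order. Its counts were 20, 11, 6, 18 and 7 in Vec, 4, 0, 1, 1 and 1 in Vec+BBR, 39, 41, 45, 58 and 19 in shRNA, and 12, 14, 8, 12 and 16 in shRNA+BBR, rounded to whole numbers. Every Vec+BBR liver was again below all others. Over the 20 livers the log2 CPM of Cyp3a44 and Cyp3a41a correlated with Pearson r = 0.94, and r = 0.64 after the group means were removed, over 20 points that share their libraries and, for the reads, 2.52% of the 100-base windows of Cyp3a44.

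The sequence before the start of transcription was set side by side for these genes. The reason was that Cyp3a41a and Cyp3a44 moved together, while Cyp3a11 moved less and was not called in any comparison. All 8 genes matched the RefSeq promoter table of GRCm38.p6, which holds 250 bases before and 50 after the start of 27025 genes. The stretches shown are the 250 bases before the start of Cyp3a41a (chr5:145720137-145720386), Cyp3a44 (chr5:145805875-145806124) and Cyp3a25 (chr5:146009619-146009868), all on the reverse strand. For Cyp3a11 only the first 140 bases (chr5:145879965-145880104, reverse strand) are shown, since GENCODE places its start further upstream. Capitals mark the letters searched on both strands, namely TGTTTAC (forkhead core), AGGTCA and AGTTCA (half-sites of nuclear receptors), and ATCAAT (ONECUT core), none of which overlap here.
Cyp3a41a: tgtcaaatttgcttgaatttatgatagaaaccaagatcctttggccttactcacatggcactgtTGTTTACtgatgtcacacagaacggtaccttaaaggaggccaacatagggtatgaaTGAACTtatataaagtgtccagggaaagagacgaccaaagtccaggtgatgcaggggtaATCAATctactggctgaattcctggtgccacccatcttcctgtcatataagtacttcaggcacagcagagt
Cyp3a44: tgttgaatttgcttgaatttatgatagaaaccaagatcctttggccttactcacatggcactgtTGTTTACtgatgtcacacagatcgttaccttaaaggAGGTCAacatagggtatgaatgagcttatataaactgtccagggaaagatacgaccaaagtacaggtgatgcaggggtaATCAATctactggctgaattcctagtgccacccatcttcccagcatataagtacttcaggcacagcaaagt
Cyp3a11: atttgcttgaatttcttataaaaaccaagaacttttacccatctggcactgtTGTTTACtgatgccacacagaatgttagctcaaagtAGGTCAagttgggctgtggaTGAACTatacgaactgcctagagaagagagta
Cyp3a25: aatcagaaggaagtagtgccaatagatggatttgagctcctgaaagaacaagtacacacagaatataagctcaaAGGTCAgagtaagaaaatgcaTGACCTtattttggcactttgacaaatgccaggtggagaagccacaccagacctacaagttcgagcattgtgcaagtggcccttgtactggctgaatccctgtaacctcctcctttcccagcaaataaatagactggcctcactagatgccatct

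Over the 250 upstream bases Cyp3a41a was identical to Cyp3a41b at 99.6% of aligned bases, to Cyp3a44 at 94.4%, to Cyp3a16 at 93.9% and to Cyp3a11 at 80.9%, and Cyp3a25 was identical to Cyp3a59 at 95.6%. The letters ATCAAT were in the promoter windows of 4 members, namely Cyp3a16, Cyp3a41a, Cyp3a41b and Cyp3a44, and in 7.76% of all promoters in the table. The 30 bases around them were the same in all 4 genes. Counted from 1 at the 5′ end of those 30 bases, with the Cyp3a41a base first, Cyp3a11 had 7 substitutions (G5A, G6A, A10G, A14C, G26T, A27G and T30C), of which A14C lies within the 6 letters. In Cyp3a11 the 30 bases lie before the RefSeq start but after the GENCODE start, unlike in the other 4 genes. The 80.9% also includes bases after that GENCODE start. TGTTTAC was in the same 4 genes and in Cyp3a11, and in 3.55% of all promoters. AGGTCA was in Cyp3a11, Cyp3a25, Cyp3a44 and Cyp3a59 (16% of all promoters) and AGTTCA in Cyp3a11, Cyp3a41a and Cyp3a41b (14% of all promoters). TTCNNNGAA, the core that STAT5 dimers bind, was in 8.47% of all promoters and in none of the 8 members, as were the direct repeat of AGGTCA with 1 base between (0.0444% of all promoters) and the everted repeat with 6 bases between, found in 0 promoters of the table. The motifs were chosen after the data were seen, and the members are copies of each other, so a match shared among them is not an independent count.

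The comparison of Vec+BBR with Vec asks what BBR did in livers whose Pparg was not targeted. With BBR, 4 of the 7 tested Cyp3a genes fell and none rose, where 7.88% of all tested genes fell and 7.58% rose (edgeR, adjusted p under 0.05). Cyp3a41a fell by 6.01 on the log2 scale (SE 0.84, adjusted p = 0.000183), 64.5-fold in the fit. Cyp3a44 fell by 3.23 (SE 0.56, adjusted p = 0.000951), on 62 counts summed over the Vec livers and 7 over the Vec+BBR livers. The 2 groups did not overlap for either gene, as was true of 4.25% of all tested genes in this direction and 4.7% in the other. The fall of Cyp3a41a was 5.05 on the log2 scale without Vec replicate 4, the liver with the most Cyp3a41a in its group and it was still called.

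Cyp3a25 and Cyp3a59, the pair at the far end of the cluster, fell less and by similar amounts. Cyp3a25 was at 904, 941, 542, 845 and 630 CPM in Vec and at 632, 377, 485, 426 and 473 CPM in Vec+BBR livers. Vec replicates 3 and 5 lay under the highest Vec+BBR liver, and the other 3 lay above all of them. It fell by 0.69 on the log2 scale (SE 0.15, edgeR adjusted p = 0.00335). Cyp3a59 was at 116, 116, 64.1, 126 and 109 CPM in Vec and at 80.7, 62.0, 80.5, 55.2 and 43.5 CPM in Vec+BBR livers, with Vec replicate 3 the overlapping liver. It fell by 0.72 (SE 0.16, adjusted p = 0.00562). Some reads are divided between Cyp3a25 and Cyp3a59, whose counts were not whole in 20 of 20 libraries. They share 6.05% and 5.61% of their 100-base windows, so their falls may not be fully separate observations.

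Cyp3a11, the most abundant member, was at 4210, 2717, 3201, 2371 and 3915 CPM in Vec and at 3221, 2384, 2788, 2472 and 2276 CPM in Vec+BBR livers. The groups overlapped, and the difference did not pass the test (log2 fold change −0.32, SE 0.16, edgeR adjusted p = 0.172). Cyp3a13, which lies outside the cluster, averaged 223 ± 41.7 CPM (SD, n = 5) in Vec livers and 231 ± 21.6 CPM with BBR (log2 fold change 0.05, SE 0.11, adjusted p = 0.787). Without Vec replicate 1 or 3 its sign turned, to −0.006 and −0.04, and neither passed the test. Cyp3a41b had 15.8 counts in Vec replicate 4, 5.06 in Vec replicate 5 and 0 in the other 8 livers of these groups, and was not called (edgeR adjusted p = 0.108). Cyp3a16 had at most 1 count in each of these 10 livers.

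**Figure D3:**
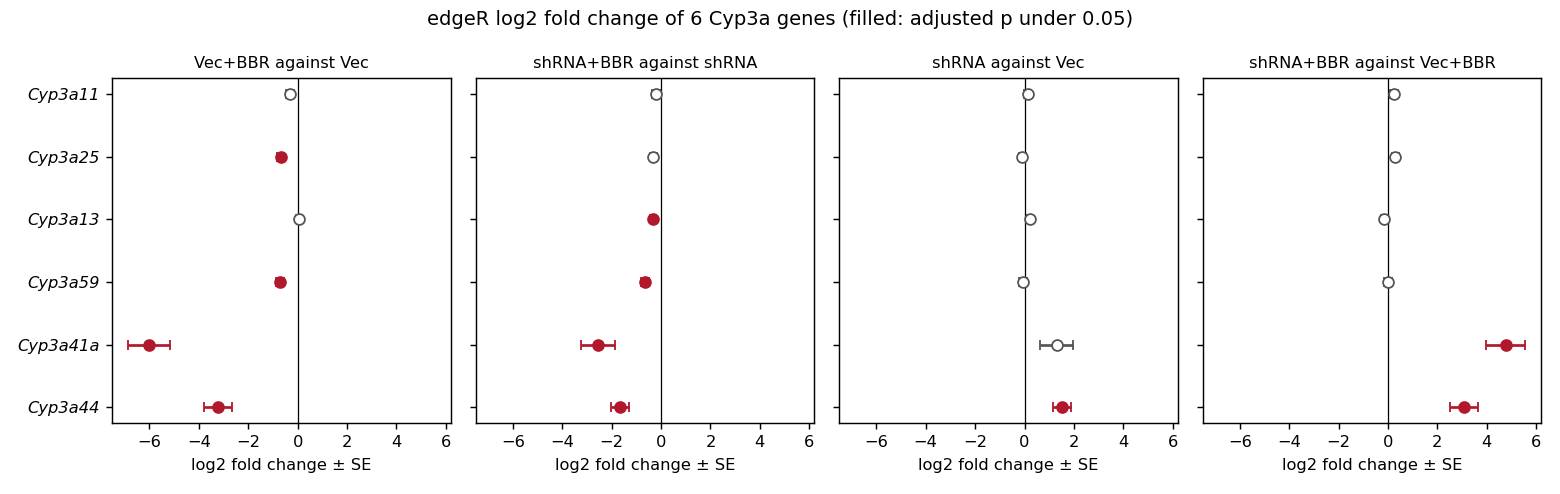
Log2 fold change (point) with its SE (bar) from edgeR for 6 Cyp3a genes in the 4 comparisons between groups, filled where the adjusted p was under 0.05. Cyp3a41a and Cyp3a44 reach −6.01 and −3.23 in Vec+BBR against Vec and 4.76 and 3.07 in shRNA+BBR against Vec+BBR, while Cyp3a11 stays between −0.32 and 0.24 and is not called.

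The comparison of shRNA+BBR with shRNA asks what BBR did after Pparg knockdown. Of the 7 tested members 5 fell and none rose, where 7.28% of all tested genes fell and 8.37% rose. Cyp3a41a fell by 2.54 on the log2 scale (SE 0.69, edgeR adjusted p = 0.0208) and Cyp3a44 by 1.67 (SE 0.36, adjusted p = 0.00748), with no overlap between the groups for either. Without shRNA+BBR replicate 3 or 4, the livers with the least Cyp3a41a in their group, the adjusted p of Cyp3a41a was 0.0616 and 0.0508. Cyp3a59 fell by 0.67 (SE 0.16, adjusted p = 0.0133), from 102 ± 10.5 to 64.5 ± 5.26 CPM (SD, n = 5), again without overlap.

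Cyp3a13 fell from 258 ± 23.2 to 207 ± 11.9 CPM (SD, n = 5), or by 0.32 on the log2 scale (SE 0.11), and the edgeR adjusted p of 0.0496 was just under the threshold. Leaving out any library except shRNA+BBR replicate 5 moved it past 0.05, up to 0.114, as did no filter on low counts (0.0620) and a filter of 10 counts in every library (0.0558). Cyp3a41b was called with 0, 16.2, 17.3, 34.3 and 21.6 counts in shRNA and 6.06, 0, 0, 0 and 0 in shRNA+BBR livers (adjusted p = 0.0377), and lost the call without any of 8 of the libraries, with adjusted p up to 0.0990, and by DESeq2 (adjusted p = 0.260). Cyp3a25 had 728 ± 46.5 and 585 ± 67.1 CPM without overlap, a log2 fold change of −0.31 (SE 0.14) that did not pass the test (adjusted p = 0.133), although it did with only these groups in the fit (adjusted p = 0.0434). In all, 5 members did not overlap between these groups (Cyp3a13, Cyp3a25, Cyp3a41a, Cyp3a44 and Cyp3a59), as was true of 5.57% of all tested genes in this direction and 5.8% in the other. Cyp3a11 was at 3573 ± 613 and 3112 ± 440 CPM, with a log2 fold change of −0.20 (SE 0.16, adjusted p = 0.385).

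The comparison of shRNA+BBR with Vec+BBR asks how knockdown changed the livers of BBR-treated mice. Here 2 of 7 tested members rose and none fell, where 3.31% of all tested genes rose, 4.82% fell and 8.13% were called in either direction. Cyp3a41a rose by 4.76 on the log2 scale (SE 0.80, edgeR adjusted p = 0.00142), 27.2-fold in the fit, and Cyp3a44 by 3.07 (SE 0.56, adjusted p = 0.00277). Without Vec+BBR replicate 1, which holds 4 of the 7 Cyp3a44 counts of its group, the rise of Cyp3a44 was 3.86. The lowest shRNA+BBR liver, at 22.3 CPM of Cyp3a41a, was above the highest Vec+BBR liver, at 6.55 CPM, and such a gap in this direction was found for 3.28% of all tested genes, and in the other for 5.19%. Cyp3a25 had a log2 fold change of 0.29 (SE 0.14, adjusted p = 0.220) and Cyp3a11 of 0.24 (SE 0.16, adjusted p = 0.354). Cyp3a59 was at 64.4 ± 16.2 and 64.5 ± 5.26 CPM (SD, n = 5), a difference of 0.00 with an SE of 0.16. Cyp3a41a and Cyp3a44 were therefore the members that passed the test with knockdown under BBR. Cyp3a41b, also a gene of the female liver, was not called (edgeR adjusted p = 0.446). The difference between members was not itself tested.

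In livers without BBR, shRNA against Vec, Cyp3a44 was the member called, where 5.28% of all tested genes rose and 7.91% fell. It rose 2.83-fold (SE 0.36 on the log2 scale, edgeR adjusted p = 0.00861), from 0.649 ± 0.326 to 1.84 ± 0.670 CPM (SD, n = 5), with overlap between the groups. Of all tested genes 3.95% had higher values in shRNA livers without overlap, and no member did. Cyp3a41a was at 224 ± 254 and 550 ± 144 CPM and was not called (log2 fold change 1.29, SE 0.67, adjusted p = 0.205). That outcome rests on Vec replicate 4. Without it the log2 fold change of Cyp3a41a was 2.25 with an adjusted p of 0.0191, that of Cyp3a41b passed as well (adjusted p = 0.0359), and 3 members were called. The other 4 tested members had log2 fold changes between −0.09 and 0.21 and adjusted p-values of at least 0.203.

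The effect of BBR in shRNA livers minus its effect in Vec livers was tested as an interaction. It was 3.47 on the log2 scale for Cyp3a41a (SE 1.00, edgeR adjusted p = 0.105), 1.57 for Cyp3a44 (SE 0.69, adjusted p = 0.235) and −0.37 for Cyp3a13 (SE 0.15, adjusted p = 0.208). None of the 7 members was called, with 3 at an unadjusted p under 0.05, where 2281 of the 12342 tested genes were, and 0.146% of all tested genes were called in either direction (0.0729% higher and 0.0729% lower). By DESeq2, 1 member passed, Cyp3a41a, with an adjusted p of 0.0348. The smaller fall of Cyp3a41a after knockdown is thus not established by the edgeR fit.

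Summed over the 8 members, the Cyp3a RNA of a liver was 4609 ± 654 CPM (SD, n = 5) in Vec, 3406 ± 487 in Vec+BBR, 5215 ± 746 in shRNA and 4064 ± 438 in shRNA+BBR livers. The ranges of Vec (3995 to 5572 CPM) and Vec+BBR (3034 to 4181 CPM) overlapped. Those of shRNA (4431 to 6155 CPM) and shRNA+BBR (3508 to 4447 CPM) overlapped by 1 liver on each side. Of the summed FPKM, Cyp3a11 made up 68.7 ± 11.02% in Vec, 76.0 ± 1.67% in Vec+BBR, 66.1 ± 3.27% in shRNA and 74.8 ± 4.47% in shRNA+BBR livers. Cyp3a41a made up 5.51 ± 6.53%, 0.113 ± 0.0856%, 11.6 ± 2.49% and 2.66 ± 2.24% in the same order. Its share reached 16.7% in Vec replicate 4, a liver with 2371 CPM of Cyp3a11, the lowest in its group.

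**Figure D4:**
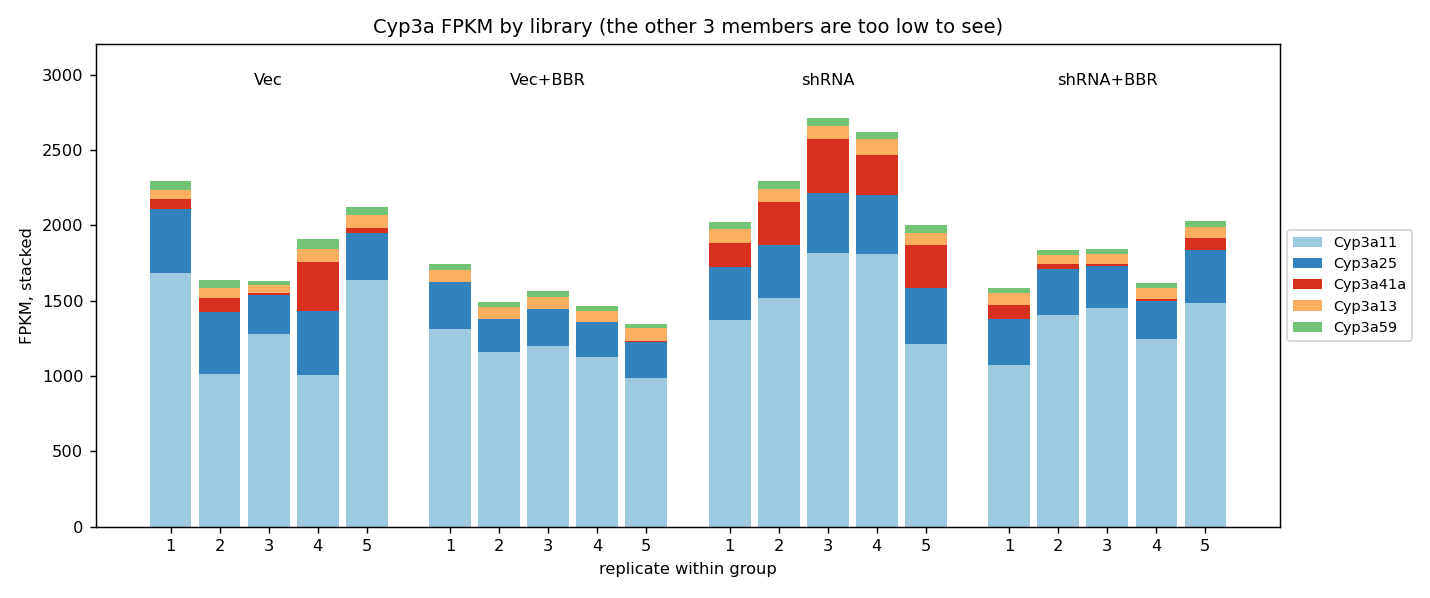
FPKM of Cyp3a11, Cyp3a25, Cyp3a41a, Cyp3a13 and Cyp3a59 stacked for each of the 20 livers, ordered by group and replicate. The Cyp3a41a segment is large in the 5 shRNA livers and in Vec replicate 4 and too thin to see in the 5 Vec+BBR livers, where it is at most 3.22 FPKM.

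Across the 20 livers, the log2 CPM of Cyp3a25 correlated with those of Cyp3a41a (r = 0.84), Cyp3a59 (r = 0.82) and Cyp3a44 (r = 0.79). After the group means were removed these were 0.75, 0.64 and 0.74. Cyp3a11 correlated with Cyp3a41a at r = 0.44, and at r = −0.23 after the group means were removed. These are descriptions over 20 points that share library and scaling, and for Cyp3a25 and Cyp3a59 also reads. The plot of pairs shows that livers rich in Cyp3a41a had more Cyp3a44 and Cyp3a25, while the link with Cyp3a11 was looser. The group means of Cyp3a11 ran in the same order as those of Cyp3a41a, but its differences were smaller and not called.

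**Figure D5:**
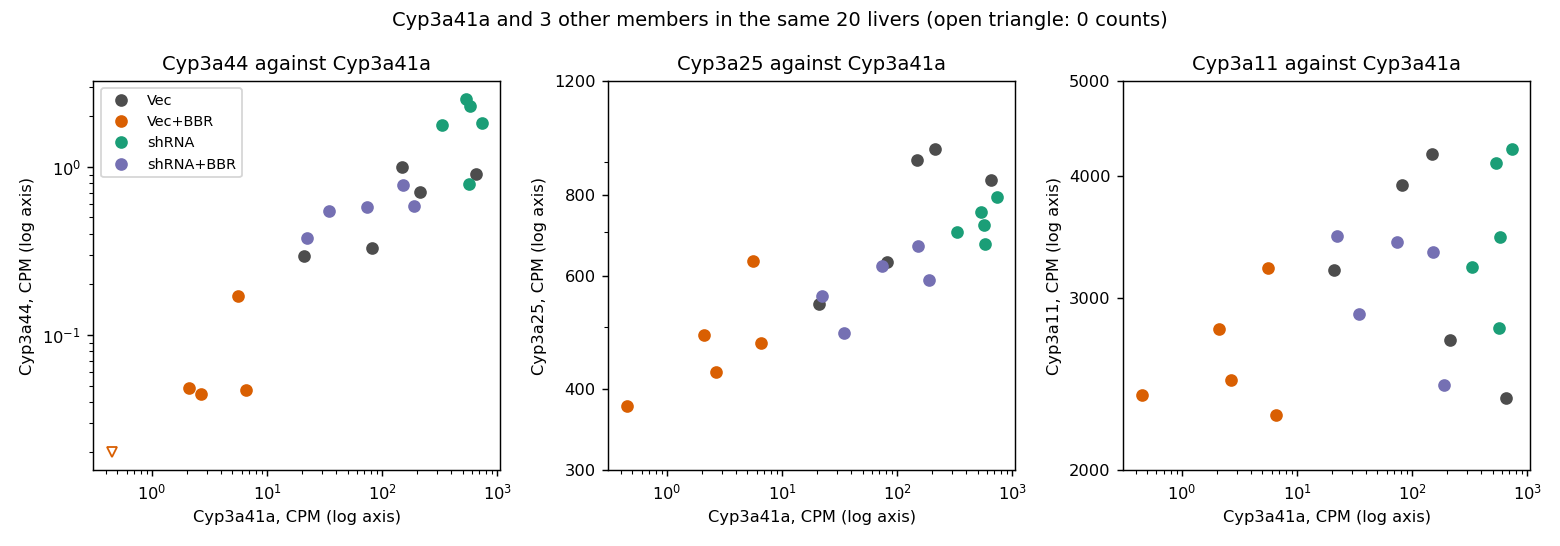
CPM of Cyp3a44, Cyp3a25 and Cyp3a11 against CPM of Cyp3a41a in the same liver (log axes, 1 point per liver, coloured by group, open triangle for 0 counts). The points of Cyp3a44 (r = 0.94) and Cyp3a25 (r = 0.84) rise with Cyp3a41a, and those of Cyp3a11 (r = 0.44) scatter more.

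Outside the family, the 5 genes whose log2 CPM was most like that of Cyp3a41a over the 20 livers were Pipox (r = 0.96), Lrtm1 (r = 0.95), Cyp4f14 (r = 0.94), Sult1b1 (r = 0.94) and Dmgdh (r = 0.93). Pipox and Dmgdh encode enzymes that oxidize sarcosine-related amino acids, Cyp4f14 a fatty acid hydroxylase and Sult1b1 a sulfotransferase. Lrtm1 was at 57.6 ± 14.0 CPM (SD, n = 5) in Vec, 14.0 ± 4.37 in Vec+BBR, 83.1 ± 4.603 in shRNA and 41.5 ± 9.63 in shRNA+BBR livers, the same order of groups as Cyp3a41a. For Cyp3a11 the 5 were Rbm8a (r = 0.80), Erp44 (r = 0.79), Lyrm4 (r = 0.78), Mterf3 (r = 0.77) and Lrrc57 (r = 0.76), a looser likeness to genes without a P450 among them. The median r with Cyp3a41a over 12335 tested genes was −0.004. Group means were not removed for these r values or for those of the genes that follow, so they include the differences between groups.

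Among 15 regulators of Cyp3a genes, 14 were tested, and none was called in Vec+BBR against Vec or in shRNA+BBR against Vec+BBR. PXR (Nr1i2) had a log2 fold change of 0.03 (SE 0.14) with BBR in Vec livers, CAR (Nr1i3) one of −0.36 (SE 0.17, edgeR adjusted p = 0.156) and Hnf4a one of −0.24 (SE 0.13, adjusted p = 0.223). In shRNA against Vec the coactivator Ncoa1 rose by 0.46 (SE 0.10, adjusted p = 0.00577) and Cebpa fell by 0.45 (SE 0.11, adjusted p = 0.00833). In shRNA+BBR against shRNA Foxa3 rose by 0.67, and Rxra fell by 0.43 and Ncoa1 by 0.36.

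Por, the oxidoreductase that passes electrons to the P450 enzymes, was the gene called lower among 7 genes of electron transfer and haem in Vec+BBR against Vec. It fell by 0.94 on the log2 scale (SE 0.17, edgeR adjusted p = 0.00114), from between 615 and 1347 CPM in Vec to between 435 and 537 CPM in Vec+BBR livers, without overlap. It also fell in shRNA+BBR against shRNA, by 0.60 (SE 0.17, adjusted p = 0.0239), and was not called with knockdown. Its log2 CPM correlated with that of Cyp3a41a at r = 0.88. Cyb5b, a cytochrome b5 of the outer mitochondrial membrane, rose by 0.37 (adjusted p = 0.0343) with BBR in Vec livers and fell by 0.53 (adjusted p = 0.00876) in shRNA+BBR against Vec+BBR.

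Of 20 other target genes of PXR and CAR, all tested, 4 rose and 9 fell in Vec+BBR against Vec, and 4 rose and 8 fell in shRNA+BBR against shRNA. The median log2 fold changes of the list were −0.17 and −0.40, beside medians of −0.005 and 0.008 over all tested genes. The P450 genes Cyp2c50, Cyp2c37, Cyp2c29 and Cyp2a5 fell most with BBR in Vec livers, by 2.51, 2.40, 1.61 and 1.47 on the log2 scale. In shRNA+BBR against Vec+BBR 5 of the 20 rose and 2 fell, among them Akr1b7 (1.66), Slco1a4 (1.63) and Cyp2c50 (1.32) upward and Ugt1a9 (−1.34) downward. In shRNA against Vec 4 rose and 4 fell, led by Akr1b7 (1.38) upward and Ugt1a9 (−1.35) downward. Cyp2c50 and Slco1a4 thus fell with BBR in both comparisons and rose with knockdown under BBR, as Cyp3a41a did, while Ugt1a9 moved the other way in each of these (r = −0.88 with Cyp3a41a).

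Of 18 other genes of the female liver, all tested, 2 rose and 5 fell in Vec+BBR against Vec, with a list median of −0.89. Sult2a1, a sulfotransferase, fell by 3.70 (SE 0.84, edgeR adjusted p = 0.00567), Cyp2c69 by 2.36 and Ntrk2 by 2.26. In shRNA+BBR against shRNA none rose and 6 fell, with a list median of −1.05, among them Sult2a1 (−2.25), Cyp2c69 (−2.22) and Sult3a1 (−1.69). With knockdown 3 rose and none fell in shRNA against Vec (Prom1, A1bg and Abcd2), and 3 rose and 2 fell in shRNA+BBR against Vec+BBR, where Sult2a1 rose by 2.999 (SE 0.82, adjusted p = 0.0281). Sult2a1 therefore passed the test in the same 3 comparisons as Cyp3a41a, and in the same directions. Abcd2 went the other way and was called in Vec+BBR against Vec (1.52) and in shRNA+BBR against Vec+BBR (−0.72). Its r with Cyp3a41a was −0.71.

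Of 18 genes of the male liver, 16 were tested. None rose and 4 fell in Vec+BBR against Vec (Slco1a1, Mup3, Susd4 and Cyp7b1), and none rose and 6 fell in shRNA against Vec, led by Cyp4a12a (−1.65). In shRNA+BBR against shRNA 4 rose and 2 fell, and in shRNA+BBR against Vec+BBR 1 fell and none rose. Of 10 genes of the growth hormone axis, Onecut1, a factor of the ONECUT class whose core letters were found before Cyp3a41a and Cyp3a44, rose by 1.27 in shRNA against Vec (SE 0.29, edgeR adjusted p = 0.00634) and fell by 0.88 in shRNA+BBR against shRNA (SE 0.28, adjusted p = 0.0419). In Vec+BBR against Vec it had a log2 fold change of 0.50 (SE 0.29, adjusted p = 0.270), where Cyp3a41a fell, and its r with Cyp3a41a was 0.26. Cish, a target of STAT5, rose by 1.38 in shRNA against Vec (SE 0.31, adjusted p = 0.00609). The list had no call in shRNA+BBR against Vec+BBR.

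Of 7 tested genes within 250 kb of the clustered members, none fell in Vec+BBR against Vec and Zfp655 rose by 0.62 (edgeR adjusted p = 0.0446). None was called in shRNA+BBR against shRNA. Atp5j2 rose by 0.46 in shRNA+BBR against Vec+BBR (adjusted p = 0.0280) and Cdk8 by 0.58 in shRNA against Vec (adjusted p = 0.00826). Over the wider stretch that takes in Cyp3a13, 96 genes were tested, of which 4 rose and 6 fell in Vec+BBR against Vec (10.4%, where 15.5% of all tested genes were called). Cyp3a57, a further gene of the cluster, had between 0 and 13 counts and was not tested.

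Summed markers of other liver cells were set beside these results. The 5 cholangiocyte markers summed to between 24.03 and 45.3 CPM in Vec and between 50.3 and 96.6 CPM in Vec+BBR livers, without overlap, and to between 25.9 and 34.4 CPM in shRNA and 31.0 and 87.7 CPM in shRNA+BBR livers. The 5 hepatocyte markers summed to between 108325 and 137622 CPM in Vec and between 82583 and 117547 CPM in Vec+BBR livers. The summed Kupffer cell markers (91.1 to 249 CPM in Vec, 111 to 183 CPM in Vec+BBR) overlapped between these groups, as did those of lymphocytes, which reached at most 6.16 CPM in any library. The 5 stellate cell markers summed to between 127 and 217 CPM in Vec and between 214 and 242 CPM in Vec+BBR livers, and the 5 endothelial markers to between 62.6 and 83.0 and between 79.6 and 107 CPM. Their part in the Cyp3a differences was not tested.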

How the data were processed

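Per the labels, polyadenylated liver RNA of 20 samples was prepared with the NEBNext Ultra kit and sequenced on a NovaSeq6000, and the submitters' processing notes name the build mm10. The aligner, the counting program, the annotation and the strand setting are not given in the sources used here. The authors deposited, per gene and liver, an expected count (estimated, not normalized, and not whole for genes that share reads) and an FPKM value (scaled for length and library size by the authors). Groups were taken from the labels alone. The labels do not state that samples are separate mice, so p-values measure only the spread between these samples.

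Expected counts were rounded, filtered with filterByExpr (minimum count 10, minimum total 15), scaled by TMM and fitted with edgeR 4.0.16 (quasi-likelihood test, 4 group means, all 20 libraries, Benjamini-Hochberg over 12342 genes, threshold 0.05). FPKM were described only. In simulated counts for Vec+BBR against Vec over 12253 genes, 84% of genes changed by 1 on the log2 scale and 99% of those changed by 2 were found, with 4 false calls. The counts were drawn with the spread that edgeR estimated. The changed genes had a mean above 1 CPM, so these rates do not cover Cyp3a44 or Cyp3a41b. No library pair within a group was a duplicate, and pairs across groups were not compared. Counts of 3 or less are the floor, and no fold is given against a group at 0. Transcripts and positions are those of GENCODE M21 (GRCm38). Protein sequences were not used here, so identity is that of transcripts, aligned with Biopython 1.88.

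The members and gene lists were chosen with earlier results of these data known. All members are named, with up to 4 called genes of largest change per list and comparison, the 5 genes most like Cyp3a11 and Cyp3a41a by Pearson r of log2 CPM (prior count 2), called neighbours within 250 kb, and Pparg. Some genes that this rule names are not reported here. Nr1i2, Nr1i3, Hnf4a and Cyp3a57 are named besides and were chosen after their values were seen. Alternatives were DESeq2 1.42.0, its size factors, other filters, only the groups compared, a replicate block, Cyp3a41a and Cyp3a41b added, and each library left out.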

Additional observations from a re-analysis of the deposited data

Results flagged for a closer look

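Single livers that stand apart from the other 4 of their group by Dixon's criterion (critical value 0.710 for 5 samples) were found in 3 of 32 combinations of a Cyp3a measure and a group, and chance gives about 1 in 20. Cyp3a59 in Vec replicate 3 was at 64.1 CPM, with the nearest Vec liver at 109 CPM. Cyp3a44 in Vec+BBR replicate 1 was at 0.171 CPM, which is 4 counts, with the nearest liver at 0.0485 CPM. Cyp3a41b in shRNA+BBR replicate 1 was at 0.294 CPM, with the other 4 livers at 0. Any value above 0 is flagged there, so the chance rate does not apply to it. Cyp3a59 in Vec+BBR against Vec had a log2 fold change of −0.87 when Vec replicate 3 was left out, and without Vec+BBR replicate 1 that of Cyp3a44 was −4.02, both still called. Without shRNA+BBR replicate 1 its group is at 0 for Cyp3a41b, and no fold is given.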

How the results depend on the processing

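With a filter of at least 10 counts in every library, Cyp3a44 and Cyp3a41b are not tested, and the number of members called was 3 in Vec+BBR against Vec, 1 in shRNA+BBR against Vec+BBR, 0 in shRNA against Vec and 2 in shRNA+BBR against shRNA. With only the groups compared in the fit, 1178 genes were called in Vec+BBR against Vec, in place of 1908, with 3 members, and 1 member in shRNA+BBR against Vec+BBR, where Cyp3a44 was then not tested. DESeq2 called 338 genes for the interaction, in place of 18, and 1 member. For the interaction, a fit of only the groups compared has the same 4 groups and was not run. The log2 ratio of the summed Cyp3a level was recomputed from FPKM, from CPM without TMM factors and without each library. It kept its sign in each comparison. For Vec+BBR against Vec it was −0.33 with FPKM and −0.31 without TMM factors, and between −0.52 and −0.36 with 1 library left out. For shRNA against Vec it moved from 0.18 to 0.28 with FPKM.

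Leaving out 1 library gave between 1237 and 2395 called genes in Vec+BBR against Vec, 538 and 1129 in shRNA+BBR against Vec+BBR, 1015 and 2284 in shRNA against Vec, 661 and 2527 in shRNA+BBR against shRNA, and 5 and 122 for the interaction. The members called then numbered between 1 and 3 in shRNA against Vec and between 2 and 4 in shRNA+BBR against shRNA. The lowest gene counts came without Vec replicate 2, shRNA+BBR replicate 2, shRNA replicate 4, shRNA+BBR replicate 3 and Vec+BBR replicate 4, in the order of the comparisons above. The 3 members in shRNA against Vec came without Vec replicate 4, and the 2 in shRNA+BBR against shRNA without shRNA+BBR replicate 3 or 4. Signs turned for small differences that were not called. These ranged from −0.045 to 0.12 for Cyp3a13 in Vec+BBR against Vec, from −0.11 to 0.11 for Cyp3a59 in shRNA+BBR against Vec+BBR, from −0.19 to 0.0048 for Cyp3a25 and from −0.19 to 0.017 for Cyp3a59 in shRNA against Vec, and from −0.058 to 0.21 for the interaction of Cyp3a59. The log2 fold change of Cyp3a41b is not given where a group is at 0.

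The replicate numbers were not taken to pair the mice, since same-numbered libraries correlated over 0.1 after the group means were removed in 3 of 5 numbers at most between any groups. With a replicate block, 3 members were called in shRNA+BBR against shRNA, in place of 5 (Cyp3a13 at an adjusted p of 0.0598, Cyp3a41b at 0.0640), and the numbers of members called in the other comparisons stayed at 4, 2, 1 and 0.

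Shared sequence depends on the window. With 50 bases, the share found in another member was 14.7% for Cyp3a11, 10.5% for Cyp3a16, 25.01% for Cyp3a25, 98.6% for Cyp3a41a, 93.5% for Cyp3a41b, 18.2% for Cyp3a44 and 24.7% for Cyp3a59. With 150 bases it was 0% for Cyp3a11, Cyp3a16 and Cyp3a44, 0.702% for Cyp3a25, 82.9% for Cyp3a41a, 82.7% for Cyp3a41b and 0.706% for Cyp3a59. Fewer bases in a window find more matches by construction.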
